A study of Mus musculus with 18 samples.

Results

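Grade 3 and grade 2 lung tumours were compared after p53 had been restored in the mouse. The comparison took the 10 treated tumours of the 18 arrayed: 6 grade 3 tumours, which the labels call adenocarcinomas, and 4 grade 2 tumours, which they call adenomas. They were chosen by the treatment and grade written in the sample labels, and no measured value entered the choice. The mice were C57/B6-129SvJae, aged 10 weeks, and received tamoxifen by intraperitoneal injection 2 times. Tumours were microdissected on day 7 after the first injection. The labels name neither the p53 allele nor the tumour-initiating allele, and the restored gene itself is not analysed here. The other 8 tumours, 4 grade 3 and 4 grade 2, came from untreated mice of the same strain and age and are used below only to set a grade difference without restoration beside the treated one.

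The treated tumours came from 2 mice. Female 8688 carried all 6 grade 3 tumours (8688T1, T2, T3, T5, T6 and T11) and 3 of the grade 2 tumours (8688T8, T9 and T10), and male 8639 carried the remaining grade 2 tumour, 8639T4. With the mouse as a term in the fit, the grade difference is therefore the one within mouse 8688. Tumours of 1 mouse are not independent, so p-values over tumours are too small, and nothing here measures how the difference varies between mice. The X inactivation transcript Xist lay between 11.16 and 11.97 in the 9 tumours of 8688 and at 4.33 in 8639T4, which matched the labelled sexes.

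Values are log2 array signals, so a difference of 1 is a 2-fold change. Array medians ran from 6.05 to 6.18 over the treated tumours. Control transcripts are probed at both ends, and the excess of 3' over 5' signal, which rises as RNA degrades, was 2.62 in grade 3 tumour 8688T3 and 1.85 in grade 2 tumour 8639T4, against 0.629 to 0.857 in the other 8. In bulk tumour RNA, fewer cells of a type and less RNA per cell cannot be told apart. Surfactant protein C (Sftpc), which marks alveolar type 2 cells, was among the strongest signals, from 12.64 to 13.49 in all 10 tumours. The probe set of Nkx2-1, the lung lineage regulator, lay below the array median on all 18 arrays (3.21 to 3.90 in the treated tumours) and could not serve as a marker.

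p53 is a transcription factor that stress and oncogene signals stabilise. Its targets include Cdkn1a, whose protein p21 arrests the cell cycle, Mdm2, which marks p53 for destruction, and genes of DNA repair and cell death. ARF, a product of Cdkn2a, holds Mdm2 in check when growth signalling through MAPK is strong. In mouse lung adenocarcinoma, loss of alveolar identity with gain of gut-like genes such as Hnf4a is known to accompany progression.

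After restoration, no gene was called different between grade 3 and grade 2 tumours. Of 7058 genes tested by limma with the mouse as a block, 0 (0%) passed an adjusted p of 0.05, and the lowest adjusted p was 0.790. At an unadjusted p under 0.05 there were 346 genes, 4.9% of those tested, 173 higher (2.45%) and 173 lower (2.45%) in grade 3. These shares are the background for the counts of list members below. The median difference was 0.03, and 4029 genes (57.1%) lay above 0. Differences were small: the median size was 0.11, the 95th percentile was 0.34, and 7 genes had a fitted difference beyond 1 in either direction.

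The intervals say what size of difference these tumours leave room for. The 95% interval of the grade difference had a median half-width of 0.283. It lay within 1 log2 unit of 0 for 6913 genes (97.9%) and within 0.5 for 5066 genes (71.8%). A difference of 2-fold was thus outside the interval for most genes, while differences of a fraction of that size were inside it. Over the tested genes, pairs of tumours of mouse 8688 correlated as well between grades (median 0.983, range 0.955 to 0.991, 18 pairs) as within grade 3 (median 0.980, range 0.964 to 0.989, 15 pairs) or within grade 2 (median 0.983, range 0.981 to 0.983, 3 pairs), as a description of these arrays.

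The p53 targets Cdkn1a, Mdm2 and Ccng1 overlapped between the grades, and their fitted differences lay near 0. Cdkn1a had a lowest value of 10.52, a median of 11.24 and a highest value of 11.87 in grade 3 tumours, against 11.27 (8688T8), 10.9996 (8688T9), 11.11 (8688T10) and 11.06 (8639T4) in grade 2 tumours. All 4 grade 2 tumours lay inside the grade 3 range. The means were 11.15 ± 0.52 in grade 3 tumours (SD, n = 6) and 11.11 ± 0.12 in grade 2 tumours (SD, n = 4). The fitted difference was 0.02 (SE 0.26, 95% interval -0.54 to 0.59, adjusted p = 0.980, limma). A two-sided exact permutation test of the plain means over the 9 tumours of mouse 8688 gave p = 0.952, where the smallest p that its 84 splits allow is 0.0119.

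Mdm2 ran from 10.06 through a median of 10.24 to 10.79 in grade 3 tumours, against 10.09, 10.09, 10.30 and 10.19 in grade 2 tumours 8688T8, 8688T9, 8688T10 and 8639T4. The grades overlapped, and the fitted difference was 0.19 (interval -0.15 to 0.54). Ccng1, the cyclin G1 gene and a strong p53 target, ran from 11.93 through 12.35 to 12.72 in grade 3 tumours, against 12.43, 12.34, 12.20 and 12.06 in the same order in grade 2 tumours, with a difference of 0.00 (interval -0.31 to 0.32). The grade 3 tumours were not alike: 8688T1 was highest in Cdkn1a (11.87), Mdm2 (10.79), Ccng1 (12.72) and Psrc1 (9.97), a p53-inducible gene of the mitotic spindle. 8688T11 was lowest of the 6 in Cdkn1a (10.52), Mdm2 (10.06) and Psrc1 (7.29).

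**Figure D1:**
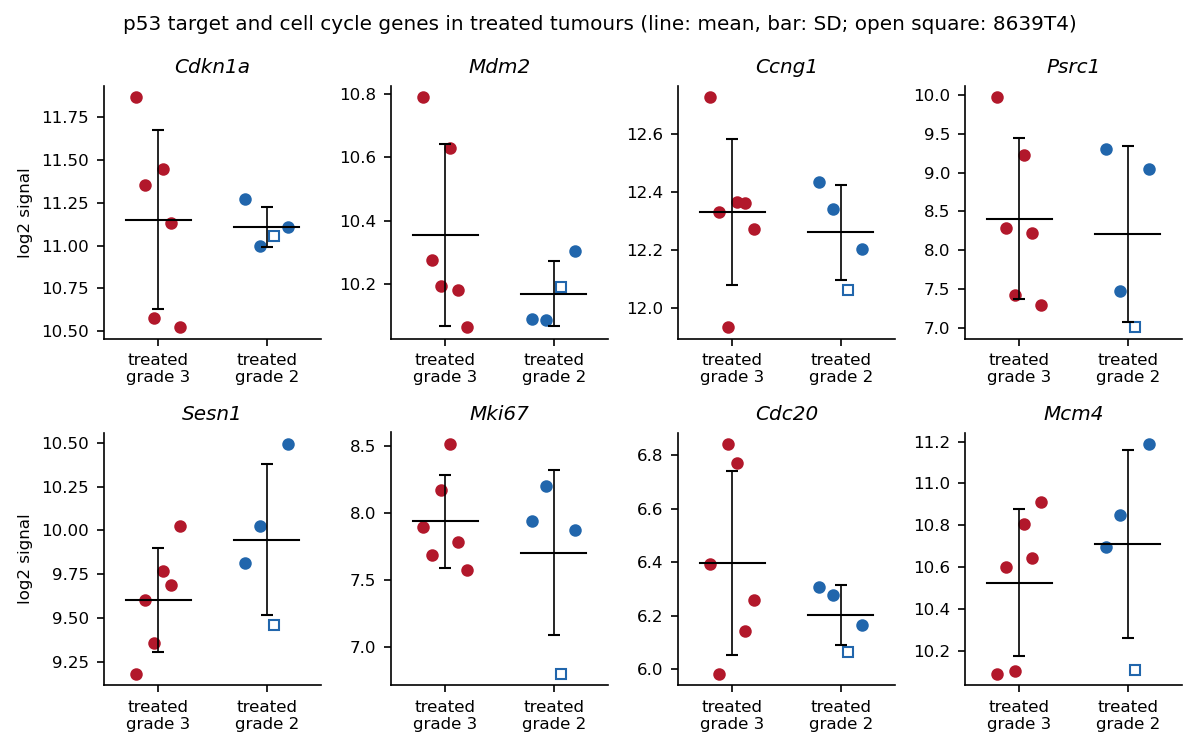
Log2 signal of 5 p53 target genes (Cdkn1a, Mdm2, Ccng1, Psrc1, Sesn1) and 3 cell cycle genes (Mki67, Cdc20, Mcm4) in each treated tumour, grade 3 left (n = 6) and grade 2 right (n = 4), with the mean as a line and the SD as a bar; the open square is 8639T4 of the other mouse, and each panel has its own axis. The grades overlap in every panel, and the Cdkn1a points of grade 3 span 10.52 to 11.87 around grade 2 points between 10.9996 and 11.27.

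Of 23 listed p53 targets of arrest and feedback, 17 were tested, 0 passed, 9 lay above 0, and their median difference was 0.00, beside 0.03 over all genes. At an unadjusted p under 0.05, 0 were higher and 2 were lower in grade 3, against 2.45% of all genes in each direction. The lower ones were Sesn1, which encodes a stress-induced brake on growth signalling (-0.51, interval -0.92 to -0.09), and Btg1, an antiproliferative gene (-0.29, interval -0.55 to -0.02). The grades did not overlap within mouse 8688 in 2 of the 17, Btg1 and Trp53inp1 (-0.15), against 3.17% of all genes. The Sesn1 value depended on the probe set: it was -0.065 with the mean of its probe sets. It turned to 0.12 when shared probe sets were left out, those whose ID (ending in _a_at, _s_at or _x_at) marks a match to several transcripts. Of 28 targets of death and repair, 21 were tested and 0 reached an unadjusted p under 0.05, with 11 above 0 and a median of 0.04. The mean over the tested arrest targets was 9.40 to 9.95 in grade 3 tumours and 9.48 to 9.70 in grade 2 tumours. Among these targets Trp53inp2, Gas6 and Phlda3 had differences of 0.25, 0.31 and 0.26, and Gadd45b one of -0.28, all with intervals that include 0.

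Cdkn2a, which encodes ARF and p16, lay below the array median in all 10 treated tumours and was not tested. Its signal ran from 4.35 through a median of 5.08 to 5.72 in grade 3 tumours, against 5.14 (8688T8), 4.08 (8688T9), 4.37 (8688T10) and 5.83 (8639T4) in grade 2 tumours. The grades overlapped, and the highest value was in grade 2. Fitted without the filter, the difference was 0.49 (interval -0.21 to 1.19). Of 20 listed ARF, INK4 and p53 regulators, 11 were tested, with 6 above 0, a median of 0.02 and 0 at an unadjusted p under 0.05.

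Most cell cycle genes overlapped between the grades, with 1 exception among the 10 mitosis genes tested, the securin gene Pttg1, within mouse 8688. Of all 7058 tested genes, 3.17% did not overlap in that mouse. Grade 2 tumour 8639T4 had the highest Pttg1 value (10.17). The Pttg1 difference was 0.24 and turned to -0.03 with no mouse term. Mki67, the proliferation marker Ki-67, ran from 7.57 through a median of 7.84 to 8.51 in grade 3 tumours, against 7.94 (8688T8), 8.20 (8688T9), 7.87 (8688T10) and 6.80 (8639T4) in grade 2 tumours. The grade 2 tumours of mouse 8688 lay inside the grade 3 range and 8639T4 lay below it. The fitted difference was -0.07 (interval -0.48 to 0.35) and turned to 0.23 with no mouse term, which lets 8639T4 count, and to 0.03 without 8688T9. Of 34 mitosis genes only 10 were above the filter, so the list says little about mitosis as a whole; 5 lay above 0, the median was -0.01, and 0 reached an unadjusted p under 0.05. Among them Cdc20, an activator of the anaphase-promoting complex, had 0.15 (interval -0.25 to 0.54) and Anln, the cytokinesis gene anillin, -0.21 (interval -0.45 to 0.03). Of 28 DNA replication genes 17 were tested, with 7 above 0, a median of -0.05 and 0 at an unadjusted p under 0.05; the helicase subunits Mcm4 and Mcm6 had -0.39 (interval -0.82 to 0.05) and -0.38 (interval -0.80 to 0.04). With the shared probe sets left out, Mcm4 turned to 0.05 and Mcm6 was -0.09.

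Genes of MAPK output followed the same course. Dusp6, a phosphatase that ERK signalling induces and that limits it in turn, ran from 11.18 through 11.32 to 11.46 in grade 3 tumours, against 11.25, 11.25, 11.55 and 11.20 in grade 2 tumours 8688T8, 8688T9, 8688T10 and 8639T4. The difference was -0.02 with an interval of -0.26 to 0.21. Of 25 MAPK output and feedback genes, 15 were tested with 6 above 0 and a median of -0.02. The one at an unadjusted p under 0.05 was Il1rn, the interleukin-1 receptor antagonist (-0.86, interval -1.37 to -0.35). Il1rn ran from 8.08 through 8.36 to 8.85 in grade 3 tumours, against 8.84 (8688T8), 9.89 (8688T9), 9.15 (8688T10) and 7.60 (8639T4) in grade 2 tumours, so 8639T4, the tumour of the other mouse, lay below all grade 3 tumours. Ccnd1, the cyclin D1 gene, had 0.34 (interval -0.02 to 0.69) and 0.07 with the mean of its probe sets, and the sprouty genes Spry1 and Spry2, ERK feedback inhibitors, had -0.02 each.

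Among upstream genes, the 14 tested of 27 listed growth factor receptors and RAS pathway genes had a median of 0.05. At an unadjusted p under 0.05, which 2.45% of all genes reached in each direction, 2 were higher in grade 3: the receptor genes Fgfr2 (0.28, interval 0.07 to 0.48) and Erbb2 (0.36, interval 0.03 to 0.69). Rasa1, a GTPase-activating protein that switches RAS off, was lower at the same threshold (-0.45, interval -0.81 to -0.10), but had -0.03 with the mean of its probe sets. None passed adjustment.

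Genes of the gut-like and embryonic programme had the highest list median, over few genes. Of 34 members 28 were on the array and 6 were tested. Of these 6, 4 lay above 0, the median difference was 0.32 and 0 passed. At an unadjusted p under 0.05, 2 were higher, against 2.45% of all genes. Gkn2, a stomach secreted protein, had 7.23, 10.58, 9.15, 9.63, 8.54 and 6.53 in grade 3 tumours 8688T1, T2, T3, T5, T6 and T11, against 7.21, 5.51, 7.62 and 7.02 in grade 2 tumours 8688T8, T9, T10 and 8639T4. Of the 6 grade 3 tumours, 4 lay above every grade 2 tumour and 2 overlapped them. The fitted difference was 1.83 (SE 0.78, interval 0.11 to 3.54, adjusted p = 0.790, limma).

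Ctse, the gastric protease cathepsin E, had 5.89, 8.27, 8.68, 7.73, 6.70 and 7.20 in the same grade 3 tumours, against 6.25, 6.28, 6.67 and 5.11 in the grade 2 tumours. All grade 3 tumours but 8688T1 lay above every grade 2 tumour. The difference was 1.01 (interval -0.07 to 2.09). A second Ctse probe set, at a low mean signal of 3.36, had a plain difference of -0.10 within mouse 8688. Lgals4, which encodes the gut lectin galectin-4, ran from 6.52 through 6.58 to 6.69 in grade 3 tumours, against 6.40, 6.26, 6.52 and 6.92 in grade 2 tumours. The grades did not overlap within mouse 8688, though grade 3 tumour 8688T6 and grade 2 tumour 8688T10 were both 6.52 at this rounding; 224 of all tested genes (3.17%) did not overlap in that mouse. Tumour 8639T4 lay above all grade 3 tumours, and the difference was 0.21 (interval 0.01 to 0.42). Hmga2, an embryonic chromatin protein, had 0.44 (interval -0.31 to 1.18), and Afp, the fetal protein alpha-fetoprotein, had -0.55 (interval -1.23 to 0.12). The other Afp probe sets, all weaker in signal, had plain differences from -0.28 to 0.05 within mouse 8688.

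Hnf4a, a regulator of gut and liver genes, lay above the array median in 1 of the 10 treated tumours and was not tested. It had 3.83, 5.94, 6.59, 5.99, 4.58 and 3.27 in grade 3 tumours 8688T1, T2, T3, T5, T6 and T11, against 3.29, 2.84, 3.84 and 2.92 in grade 2 tumours 8688T8, T9, T10 and 8639T4. Fitted without the filter the difference was 1.71 (interval 0.22 to 3.20, adjusted p = 0.942, limma). This rests on 1 probe set. The other Hnf4a probe sets, at lower mean signals of 2.70, 2.64 and 1.82, had plain differences of -0.12, 0.50 and 0.09 within mouse 8688. 8688T2, 8688T3 and 8688T5 were the highest 3 tumours in Hnf4a, Gkn2, Ctse and Hmga2 alike. 8688T3 is the grade 3 tumour with the 3' excess; without it the Gkn2 difference was 1.72 and the Ctse difference 0.76. Over all tumours left out in turn, the Gkn2 difference ran from 1.19 (without grade 2 tumour 8688T9) to 2.25 (without 8688T10).

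**Figure D2:**
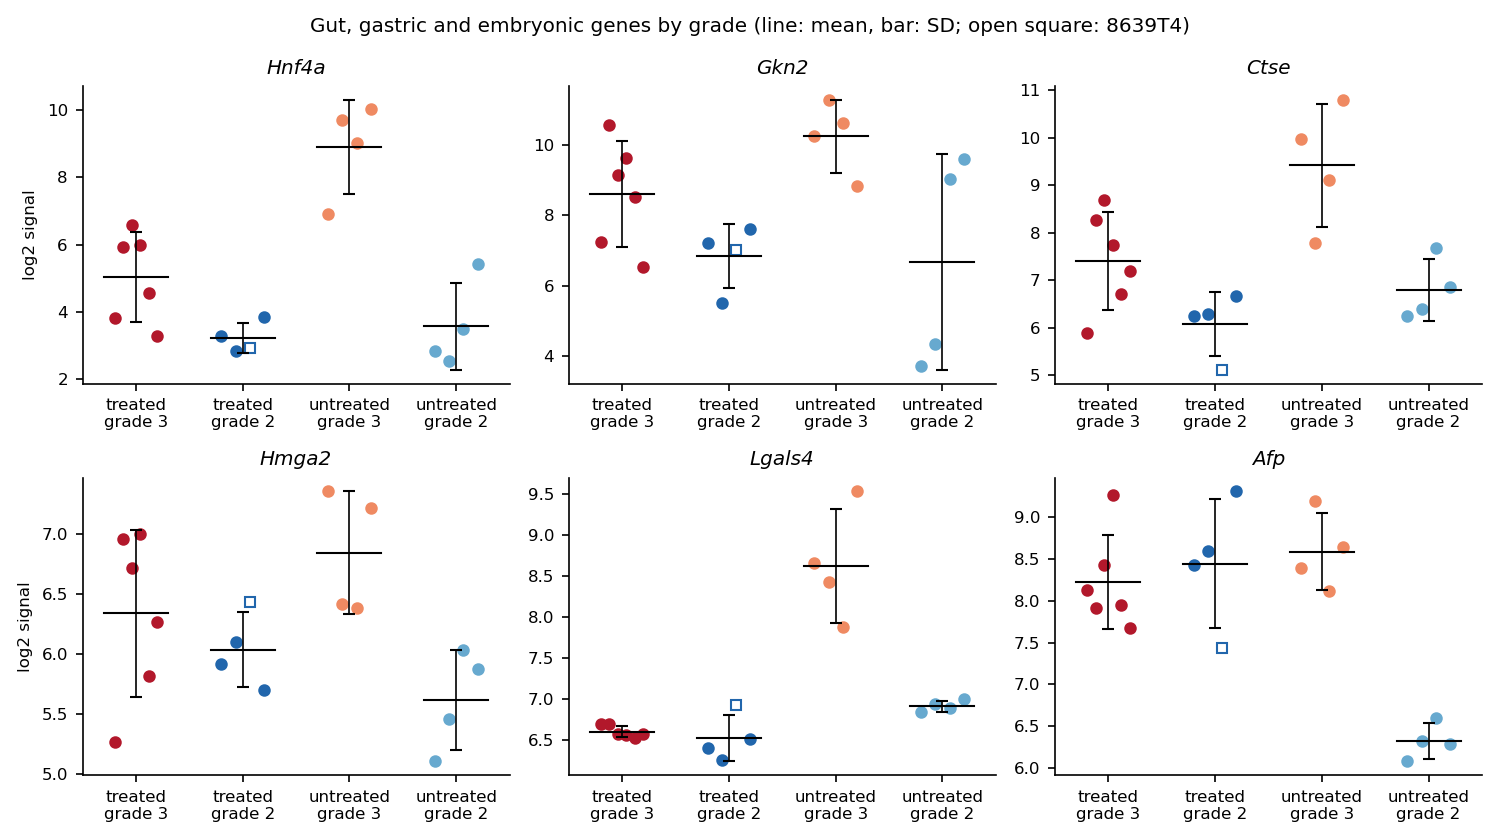
Log2 signal of 6 gut, gastric and embryonic genes in treated grade 3 (n = 6), treated grade 2 (n = 4), untreated grade 3 (n = 4) and untreated grade 2 (n = 4) tumours, with the mean as a line and the SD as a bar; the open square is 8639T4. Untreated grade 3 tumours lie above untreated grade 2 tumours without overlap in Hnf4a, Ctse, Hmga2, Lgals4 and Afp. The treated grades overlap in all 6 genes. In Lgals4 the treated overlap comes from 8639T4 of the other mouse alone. The share of all genes without overlap in untreated tumours was not counted.

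Untreated tumours show what the same grade contrast gave without restoration. Hnf4a averaged 5.03 ± 1.33 in treated grade 3 (SD, n = 6) and 3.22 ± 0.46 in treated grade 2 tumours (SD, n = 4), against 8.91 ± 1.40 in untreated grade 3 and 3.57 ± 1.30 in untreated grade 2 tumours (SD, n = 4 each). Lgals4 averaged 6.60 ± 0.07 and 6.53 ± 0.29 in the treated grade 3 and grade 2 tumours, against 8.62 ± 0.69 and 6.91 ± 0.07 in the untreated grade 3 and grade 2 tumours. The untreated Lgals4 difference of 1.69 lay above the upper end of the treated interval, 0.42. In limma on the 8 untreated tumours, 2 of 7055 genes (0.0283%) passed, Afp and Muc5b, a mucin gene. The grade difference of Afp was -0.55 in treated and 2.30 in untreated tumours (adjusted p = 0.0131 in the untreated fit, limma), and treated grade 2 tumours (8.45 ± 0.77, SD, n = 4) were about as high as untreated grade 3 tumours (8.59 ± 0.46, SD, n = 4). Muc5b lay below the array median in all treated tumours; its difference was 0.29 there when fitted without the filter (interval -0.54 to 1.11), against 3.18 in untreated tumours (adjusted p = 0.0131, limma).

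The difference between the treated and the untreated grade difference was tested by an interaction term over all 18 tumours. Of 7300 genes 0 (0%) passed in limma, the lowest adjusted p was 0.127, and 665 (9.11%) had an unadjusted p under 0.05. The term for Afp was -2.69 (SE 0.48) and that for Lgals4 was -1.54 (SE 0.33, adjusted p = 0.315). Treatment, mouse and sex cannot be told apart in this contrast, because all untreated mice were male and 9 of 10 treated tumours came from 1 female.

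Most genes that were far apart by grade in untreated tumours had smaller differences in treated ones. The 59 genes with an unadjusted p under 0.01 and a difference beyond 1 in untreated tumours, 24 higher and 35 lower in grade 3, had a median size of 0.18 in treated and 1.37 in untreated tumours. For 56 of them (94.9%) the treated interval left out the untreated size, against 37.1% of the 6923 genes tested in both, and 41 (69.5%) had the same sign, against 44.1%. The 94.9% was largely set by the choice, since untreated differences had to be beyond 1. Genes tested in both had a median untreated size of 0.17, so their 37.1% is not a like baseline. The untreated size was also taken without its own error, which was wide for Dlk1 (SE 1.24). In the treated tumours 0 passed and 6 had an unadjusted p under 0.05. In the interaction fit 0 of the 59 passed and 37 (62.7%) had an unadjusted p under 0.05, against 9.0% of the genes tested in both. That fit contains the untreated difference by which the 59 were chosen, so a raised share was built in by the choice. Of the 59, 10 had a treated difference beyond 0.5 in either direction. The thresholds that gave these 59 genes were set after the values were seen, and genes chosen for a large difference tend to have that difference overstated, which was not corrected for. The treated and untreated tumours share no array, but the interaction fit uses both. Among the 59 genes, Dlk1, an imprinted gene of fetal tissues, had 0.71 in treated (interval -0.50 to 1.91) and 4.95 in untreated tumours. Fxyd4, an ion transport regulator, had 0.46 in treated (interval -0.52 to 1.45) and 3.02 in untreated tumours, and the matrix gene Fbln1 had 0.10 in treated (interval -0.31 to 0.51) and -2.05 in untreated tumours.

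**Figure D3:**
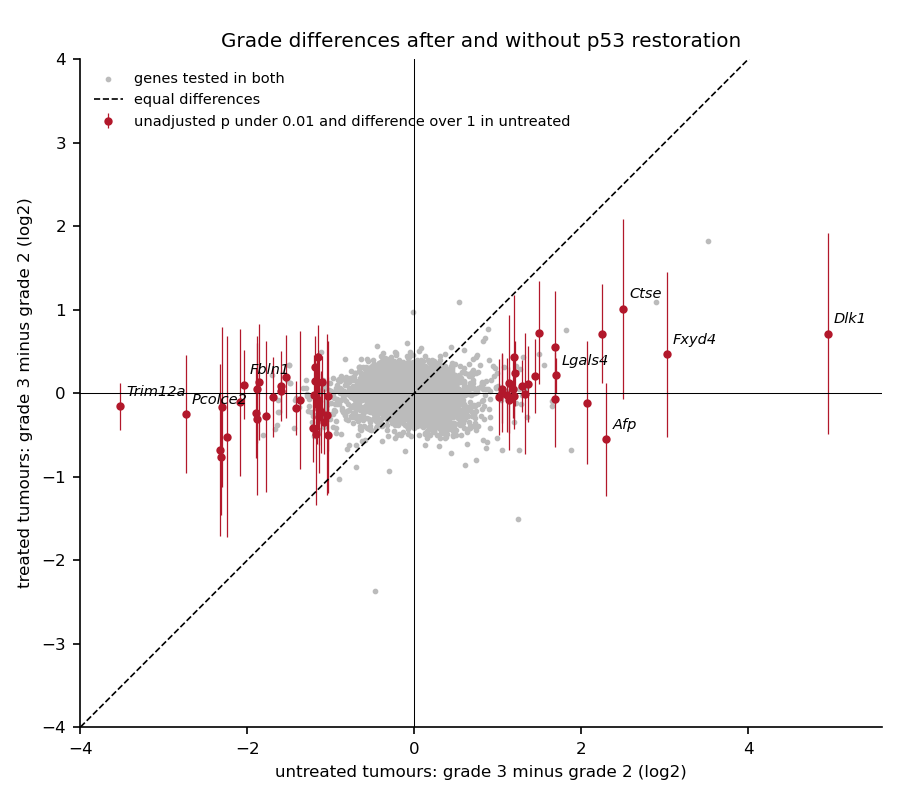
Fitted grade 3 minus grade 2 difference (log2) in treated tumours on the vertical axis against that in untreated tumours on the horizontal axis for the 6923 genes tested in both (grey); red points with 95% intervals of the treated difference are the 59 genes chosen on untreated tumours, and the dashed line marks equal differences. The red points stretch along the horizontal axis beyond 1 on both sides and run from -0.76 to 1.01 on the vertical axis, with a median size of 0.18.

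Alveolar genes lay mostly above 0. Of 23 listed alveolar type 2 genes 20 were tested, 17 lay above 0 and the median difference was 0.25, beside 0.03 over all genes, yet 0 passed and 0 reached an unadjusted p under 0.05. Sftpc ran from 12.64 through a median of 12.86 to 13.49 in grade 3 tumours, against 12.75 (8688T8), 12.70 (8688T9), 12.64 (8688T10) and 13.25 (8639T4) in grade 2 tumours; the grades overlapped and the difference was 0.25 (interval -0.13 to 0.62). The surfactant genes Sftpa1 (0.36, interval -0.07 to 0.80, but 0.08 without shared probe sets) and Sftpb (0.39, interval -0.11 to 0.88) and the phosphate transporter gene Slc34a2 (0.28, interval -0.08 to 0.64) were alike in size. The list mean was highest in 8688T3 (12.30) and 8688T1 (12.23), and without 8688T3, which has the 3' excess, the list median was 0.13. In untreated tumours the same 20 genes had a median of -0.36.

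Of 18 alveolar type 1 genes 15 were tested with a median of 0.16, which was 0.04 without 8688T8 and 0.03 with the mean of each gene's probe sets. Aqp5, a water channel (0.34, interval 0.06 to 0.62), and Ahnak, a large membrane scaffold (0.43, interval 0.04 to 0.83), were higher at an unadjusted p under 0.05, and Vegfa, the vascular growth factor, was lower (-0.49, interval -0.84 to -0.15). With the mean of its probe sets Ahnak had 0.03. Vegfa ran from 9.68 through 9.90 to 10.23 in grade 3 tumours, against 10.10, 10.54, 10.69 and 10.19 in grade 2 tumours 8688T8, 8688T9, 8688T10 and 8639T4, so the grades overlapped between 10.10 and 10.23. Of 18 club and ciliated airway genes 8 were tested, 2 lay above 0, the median was -0.24 and 0 reached an unadjusted p under 0.05. Without 8688T9 the median turned to 0.12. The mean over these 8 was 8.22 to 9.60 in grade 3 tumours and 8.72 to 10.40 in grade 2 tumours.

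Antigen presentation genes were the list with the most members higher at an unadjusted p under 0.05. Of 19 genes 14 were tested, all 14 lay above 0, the median was 0.25, 0 passed and 4 were higher at that threshold, against 2.45% of all genes. These members share cells and regulation and are not separate observations of the grade. Psmb9, an immunoproteasome subunit, ran from 7.59 through 7.92 to 8.37 in grade 3 tumours, against 7.52, 7.62, 7.47 and 7.43 in grade 2 tumours, so only 8688T6 of grade 3 lay within the grade 2 range. Its difference was 0.41 (interval 0.09 to 0.73, adjusted p = 0.790, limma).

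The class I gene H2-K1 ran from 11.39 through 11.55 to 12.19 in grade 3 tumours, against 11.27, 11.27, 11.24 and 11.78 in grade 2 tumours. The highest value of each grade belonged to the tumour with the 3' excess, 8688T3 and 8639T4, and the difference was 0.39 (interval 0.04 to 0.73), or 0.19 with the mean of its probe sets. The class II genes H2-Eb1 and H2-DMa had 0.30 (interval 0.05 to 0.54) and 0.25 (interval 0.01 to 0.49). The mean over the 14 genes was 10.19 to 10.48 in grade 3 tumours and 9.95 to 10.21 in grade 2 tumours, with 8688T6 (10.19) just below 8688T9 (10.21). The list median stayed between 0.19 and 0.30 when any 1 tumour was left out and was 0.24 without 8688T3. In untreated tumours the 14 genes had a median of -0.35, with 13 below 0.

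Interferon response genes were split. Of 31 genes 20 were tested, 8 lay above 0 and the median was -0.07. At an unadjusted p under 0.05, 3 were lower and 1 was higher, against 2.45% of all genes in each direction. The lower ones were Ifit1 (-0.34, interval -0.64 to -0.05) and Ifit2 (-0.50, interval -0.95 to -0.04), antiviral RNA-binding proteins, and Cxcl10, a T cell attractant (-0.89, interval -1.78 to -0.00). Bst2, the tetherin gene, was higher (0.31, interval 0.04 to 0.59).

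Markers of other cell types gave medians on both sides of 0. The list medians were 0.12 for fibroblast and matrix genes (17 tested of 23), 0.04 for endothelial genes (20 of 22), 0.01 for macrophage genes (19 of 26), -0.22 for neutrophil and mast cell genes (4 of 20), -0.13 for T and NK cell genes (6 of 26), -0.06 for B and plasma cell genes (8 of 20), 0.03 for erythroid and platelet genes (3 of 12) and 0.08 for smooth muscle, mesothelium and heart genes (4 of 18). Single tumours decided the sign of several: without 8688T9 the neutrophil and mast median turned to 0.12 and the T and NK median to 0.05, and without 8688T8 the same medians were -0.60 and -0.44. Defining markers below the array median in all 10 tumours included Cd4, Cd8a and Foxp3 of T cells, Cd79a and Ms4a1 of B cells, Des of muscle and Wt1 of mesothelium. The mean over the tested T and NK genes was 7.18 to 8.11 in grade 3 tumours and 6.89 to 8.25 in grade 2 tumours, and that over B and plasma genes was 8.63 to 9.96 in grade 3 tumours and 8.80 to 9.37 in grade 2 tumours. Of these lists, 1 member had an unadjusted p under 0.05, the macrophage elastase gene Mmp12 (0.72, interval 0.10 to 1.34).

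**Figure D4:**
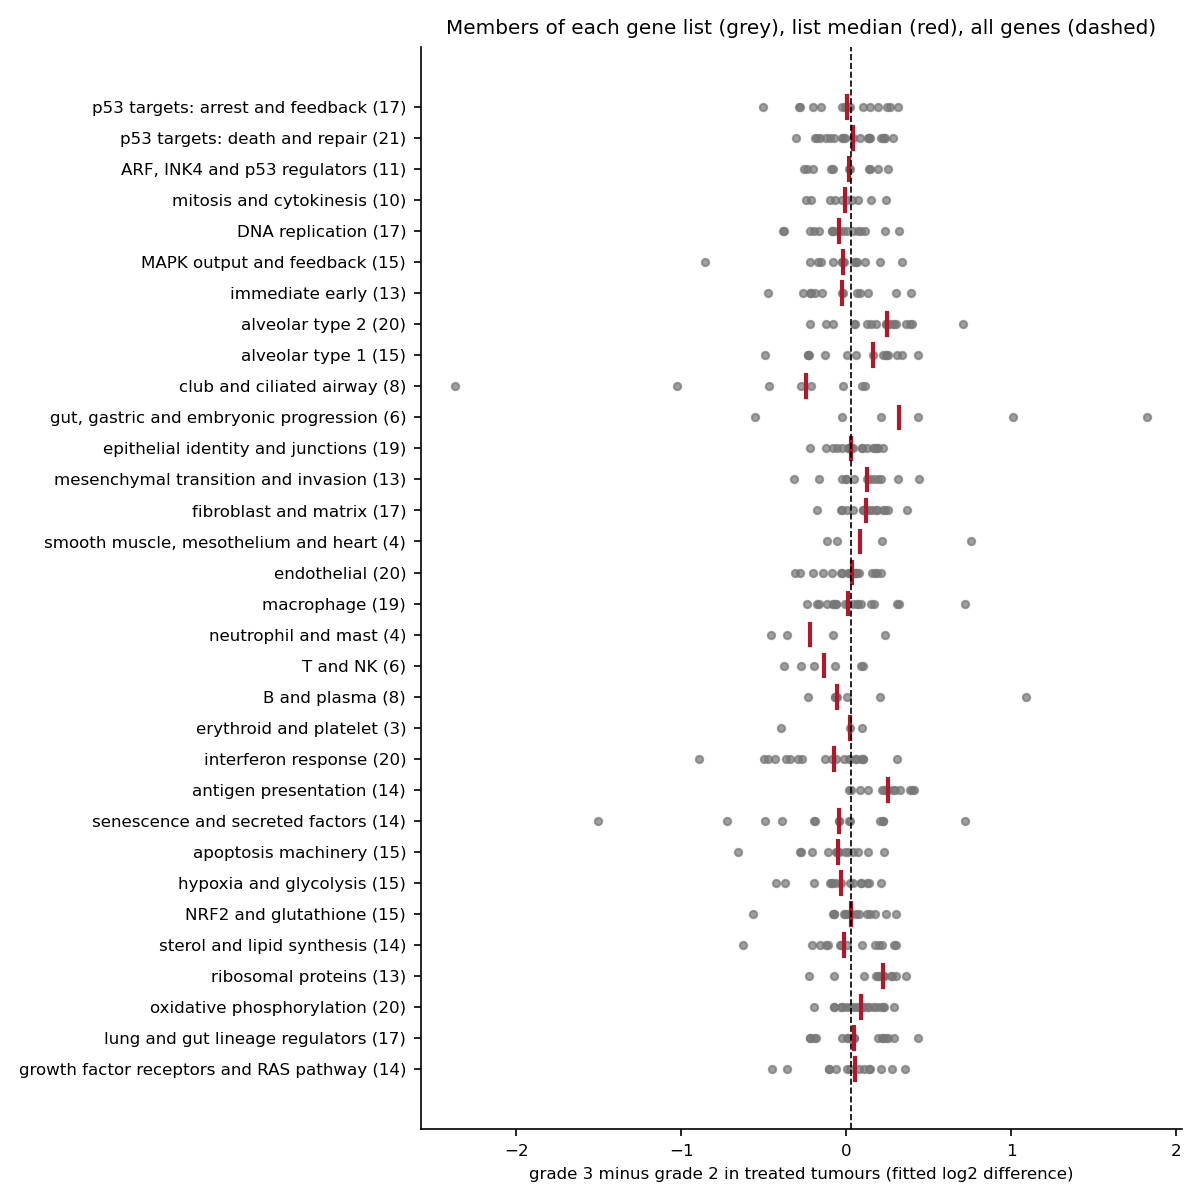
Fitted grade 3 minus grade 2 difference (log2) in treated tumours for each tested member of 32 gene lists (grey points), with the list median as a red bar, the number tested in brackets and the median of all tested genes as a dashed line at 0.03. Most medians sit near the dashed line; alveolar type 2 (0.25), antigen presentation (0.25), ribosomal proteins (0.22) and the gut list (0.32) lie to its right and airway genes (-0.24) and neutrophil and mast cell genes (-0.22) to its left, although both of these turn to 0.12 without 8688T9.

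Lists of translation and metabolism followed. Ribosomal protein genes, which carry the translation machinery, had 11 of 13 tested members above 0, against 57.1% of all genes, and a median of 0.22. Their list mean was highest in 8688T3 (12.01), which has the 3' excess. The median was 0.16 without that tumour and 0.11 with array weights. Rpl22 (0.27, interval 0.06 to 0.49) and Rpl11 (0.36, interval 0.04 to 0.68) had an unadjusted p under 0.05, which 2.45% of all genes reached in each direction. Oxidative phosphorylation genes had a median of 0.09 over 20. Hypoxia and glycolysis genes had -0.03 over 15, with the glycolytic enzyme gene Pgk1 (-0.37, interval -0.69 to -0.06) and the pyruvate dehydrogenase kinase gene Pdk1 (-0.43, interval -0.81 to -0.04) lower at that threshold. Without shared probe sets Pgk1 turned to 0.03 and Pdk1 had -0.10. In the apoptosis machinery Diablo (-0.27, interval -0.51 to -0.03) and Cycs, which encodes cytochrome c (-0.66, interval -1.25 to -0.07), were lower at that threshold, and the median over 15 genes was -0.05. Medians of the remaining lists were -0.04 for senescence and secreted factors (14 tested), -0.03 for immediate early genes (13), 0.03 for epithelial identity and junctions (19), 0.12 for mesenchymal transition and invasion (13), 0.03 for NRF2 and glutathione genes (15), -0.01 for sterol and lipid synthesis (14) and 0.05 for lung and gut lineage regulators (17). At an unadjusted p under 0.05, the senescence list had 1 member higher and 1 lower, and the mesenchymal list 1 higher. The immediate early, NRF2 and sterol lists had 1 lower each, and the epithelial and lineage lists 0. In the mesenchymal list Fn1 (0.44), the fibronectin gene, did not overlap by grade within mouse 8688, against 3.17% of all genes.

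The genes with the smallest p-values are given with none past adjustment. Slc6a20a, an amino acid transporter gene, was the highest of the upper ones: it ran from 5.89 through a median of 6.13 to 7.18 in grade 3 tumours, against 5.04 (8688T8), 5.14 (8688T9), 5.69 (8688T10) and 4.73 (8639T4) in grade 2 tumours. The grades did not overlap, with all 10 tumours counted, as was so for 56 of 7058 genes. Its difference was 1.09 (SE 0.28, interval 0.48 to 1.71, adjusted p = 0.790, limma), and it passed the filter on low values through 4 grade 3 tumours alone, so that it had to be higher there. Fgd2 also passed the filter through 4 grade 3 tumours alone. The other upper genes were Ebpl (0.54), Snhg11 (0.39), Saraf (0.38), which encodes a regulator of store-operated calcium entry, Fgd2 (0.34), Itm2c (0.33), Slc25a4 (0.31), which encodes the mitochondrial ADP/ATP carrier, and Ltbp2 (0.30), a matrix protein.

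The smallest p-value of all belonged to Zfp119a, a zinc finger gene. It ran from 5.85 through 5.97 to 6.03 in grade 3 tumours, against 6.56 (8688T8), 6.25 (8688T9), 6.44 (8688T10) and 6.14 (8639T4) in grade 2 tumours. All grade 3 tumours lay below all grade 2 tumours, and the difference was -0.46 (SE 0.10, interval -0.67 to -0.25, unadjusted p = 0.000537, adjusted p = 0.790, limma). It passed the filter through the 4 grade 2 tumours alone, so that it had to be lower in grade 3. Il1rn, given above, was also among the 8 smallest in this direction, with Prokr1 (-0.57), a prokineticin receptor gene, F10 (-0.49), which encodes coagulation factor X, Actr6 (-0.47), Rmdn1 (-0.44), Zfp131 (-0.38) and Nup155 (-0.37), a nuclear pore gene. Tumour 8639T4 did not enter the difference. Its value was set against the midpoint between the grade 3 mean and the grade 2 mean of mouse 8688. It lay on the grade 2 side of that midpoint in 88 of the 346 genes at an unadjusted p under 0.05 (25.4%), and in 2558 of all 7058 genes (36.2%).

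A few genes varied widely among tumours of mouse 8688, within as well as between grades. The SD over its 9 tumours had a median of 0.189 and a 95th percentile of 0.408 over tested genes, and the genes at the top of that order, chosen after their values were seen, are described with no test. Scgb3a2, a secretoglobin of airway club cells, had the largest SD (2.74): it was 2.99, 6.15, 5.84, 7.16, 1.83 and 2.13 in grade 3 tumours 8688T1, T2, T3, T5, T6 and T11, against 6.93, 9.94 and 3.29 in grade 2 tumours 8688T8, T9 and T10. Both grades held high and low tumours, and the interval of the grade difference (-2.37) ran from -5.56 to 0.82. Cyp2f2, a club cell cytochrome P450, was also highest in 8688T9 (10.74) and lowest in 8688T11 (6.51).

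Immunoglobulin genes formed another such group, with 7 segments among the 30 genes of largest SD. Ighm, the IgM heavy chain gene, had 7.42, 10.45, 7.22, 9.16, 6.34 and 11.68 in grade 3 tumours 8688T1, T2, T3, T5, T6 and T11, against 6.71, 7.75 and 8.40 in grade 2 tumours 8688T8, T9 and T10. Pou2af1, a B cell coactivator, was likewise high in 8688T11 (8.07), 8688T5 (8.04) and 8688T2 (7.59), and low in 8688T1 (5.57) and 8688T8 (5.81). Grade 2 tumour 8688T9 was the highest of the mouse in the neutrophil gene S100a8 (11.16), the acute phase gene Saa3 (11.30), the myeloid lectin gene Clec4d (9.30) and the neutrophil attractant gene Cxcl1 (9.69). Cxcl1 had the third largest SD, and its grade difference was -1.51 (interval -3.55 to 0.53).

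**Figure D5:**
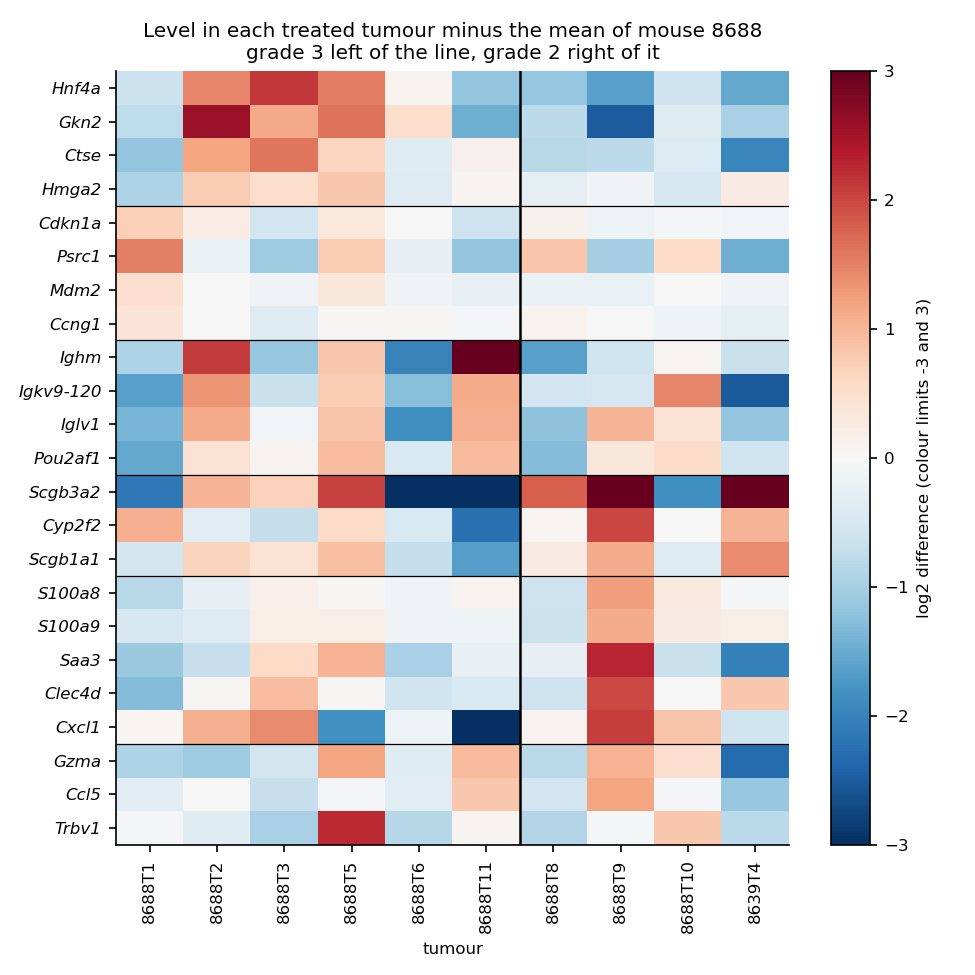
Log2 level of 23 genes in each treated tumour minus the mean over the 9 tumours of mouse 8688, with grade 3 tumours left of the vertical line and grade 2 tumours right of it (8639T4 last); from top to bottom the groups are gut and gastric genes, p53 targets, immunoglobulin and B cell genes, airway genes, myeloid and cytokine genes, and lymphocyte genes. Gut genes are high in 8688T2, 8688T3 and 8688T5, immunoglobulin genes in 8688T2, 8688T5 and 8688T11, and myeloid genes in 8688T9.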

How the data were processed

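Amplified, biotin-labelled RNA of 18 lung tumours was read on 1-colour arrays. The values are log2 signals of probe sets as deposited by the authors; the submitters' processing notes name GCRMA (2.20.0) and R (2.11.0). This normalisation removes differences in total signal between tumours. No source used here gives scan batches. Of 22690 probe sets, 20380 had 1 gene symbol, 691 several, 1555 none and 64 were controls; the first gave 12393 genes, each represented by its brightest probe set on average. A gene was tested if above the array median on at least 4 of the 10 treated arrays, so that a gene could pass through 1 grade alone.

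limma 3.58.1 in R 4.3.3 fitted grade and mouse to the 10 treated tumours (7 residual degrees of freedom), with Benjamini-Hochberg adjustment over 7058 genes and a threshold of 0.05. Mouse 8639 has 1 tumour, which fits only its own term. Untreated tumours were fitted alone, and all 18 for the interaction, with mouse as a random block (correlations 0.0875 and 0.259). Steps were tested on simulated data. The number of arrays limits the precision, and nothing states separate extractions beyond the tumours. The members, lists and rules were chosen with earlier results of these data known.

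Genes always named were Cdkn1a, Mdm2, Ccng1, Cdkn2a, Mki67, Sftpc, Nkx2-1, Hmga2, Hnf4a, Lgals4 and Dusp6, then the 8 smallest p-values in each direction, since fewer than 5 passed, and up to 4 members of each list by p-value. Psrc1, Phlda3, Gas6, Gadd45b, Sftpb, Slc34a2, the sprouty genes, Muc5b, the genes of large spread and those quoted from the untreated comparison were named after their values were seen. Alternatives changed the mouse term, tumours in the fit, normalisation, filter, probe sets, spread model, array weights, a 3' covariate, a size threshold and each tumour in turn.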

Additional observations from a re-analysis of the deposited data

Results flagged for a closer look

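In 27 of 296 sets of values tested, 1 tumour stood apart from the others of its group by Dixon's test; chance flags about 1 in 20. Tumour 8688T3 accounted for 11 of the 13 among grade 3 tumours, and 8639T4 for 11 of the 14 among grade 2 tumours. Both have the high 3' minus 5' signal, itself flagged at 2.62 in 8688T3 and 1.85 in 8639T4, and its part in the other values was not tested. Tumour 8639T4 is also the only treated tumour of its mouse and of a male. Mouse, sex and 3' excess cannot be told apart for it.

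In grade 3, 8688T3 was low in Nkx2-1 (3.27), the proteoglycan gene Sdc1 (12.03), the haemoglobin gene Hba-a2 (9.79) and Pdk1 (8.21). It was high in Saraf (11.32), the antioxidant gene Gpx1 (11.73), the securin gene Pttg1 (9.81), Phlda1 (11.09), the collagen gene Col6a1 (11.13) and the respiratory chain gene Cox7a2 (12.78). Tumour 8688T1 was low in the sterol synthesis gene Idi1 (8.69) and high in the receptor gene Erbb2 (7.20).

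In grade 2, 8639T4 was low in Nkx2-1 (3.21), Sdc1 (12.21), Hba-a2 (9.99), the collagen gene Col14a1 (5.33) and the ribosomal gene Rps6 (9.48). It was high in the cell cycle inhibitor gene Cdkn2c (6.37), Pttg1 (10.17), the endothelial regulator gene Klf2 (8.07), the plasma cell regulator gene Prdm1 (6.74) and H2-K1 (11.79). It shared Nkx2-1, Pttg1, Sdc1 and Hba-a2, in the same directions, with 8688T3. Tumour 8688T10 was high in Dusp6 (11.55), and 8688T9 was high in the smooth muscle gene Tagln (7.75) and in Pgk1 (11.40).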

How the results depend on the processing

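The count of 0 genes between treated grade 3 and grade 2 tumours held in all 25 alternatives, with a lowest adjusted p between 0.497 (without 8688T8) and 1 (limma). Counts at an unadjusted p under 0.05, 346 as reported, were 240 with no mouse term, 223 with mouse as a random block (correlation 0.239), 141 with all 18 tumours sharing the spread, 1 for a difference to exceed 0.5, and between 113 (without 8688T10) and 529 (without 8688T11) when 1 tumour was left out, with 526 without 8688T8. The Cdkn1a difference, 0.02, was -0.051 with the mean of its probe sets and between -0.12 and 0.15 when 1 tumour was left out. Of 3505 alternative values for 144 named genes, 64 in 27 genes changed sign, none of them past adjustment as reported. Many of the 3505 could not change sign. The filter settings, each probe set on its own and the other spread model keep a gene's fitted difference as it was. So do the 0.5 threshold and leaving out 8639T4, and Cdkn1a stayed at 0.02 in all of these. The share of sign changes is therefore lower than among settings that can move the difference. The 0.5 threshold also could not add genes to the count of 0. The mean of probe sets also brought Slc25a4 to 0.12, Rmdn1 to -0.16 and Nup155 to -0.19. The gut list median was 1.02 in that setting because members dropped out of the filter, Ctse, Hmga2 and Afp among them. Gkn2 (1.83) and Lgals4 (0.21) kept their reported differences, so no rise of the gut genes is shown. With no mouse term Ifit1 was -0.08.

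The untreated count of 2 ranged from 0 (without 8584T3, 8629T12, 8700T3 or 8565T4) to 16 (without 8565T1), with 1 without 8629T10. The interaction count of 0 ranged to 15 without 8565T1, with 1 without 8688T2, 8688T5, 8639T4 or 8629T10. The cause was not tested.

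All 6 grade 3 tumours come from 1 mouse, the alleles are not given, and genes below the array median, Hnf4a and Cdkn2a among them, were not tested.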
